A study of Mus musculus with 36 samples.

Results

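The genes described here serve the late steps of glucose breakdown and the export of its end product: Gapdh, Pgk1, Pgam1, Eno1 and Pkm, the lactate dehydrogenase genes Ldha and Ldhb, the lactate transporter genes Slc16a1 and Slc16a3, and Pdk1. They were chosen by symbol as members of the pathway, and 9 of the 10 were among the 12762 genes of the deposited expression table; Ldhb was not analysed here. Messenger RNA had been sequenced in 36 libraries of B3, a mouse line of pre-B lymphocytes, transduced with a retroviral MSCV vector. Ikaros cells carried HA-Ikaros-ERt2-IRES-GFP, a tagged Ikaros (the product of Ikzf1) joined to an estrogen receptor domain that responds to 4-hydroxy-tamoxifen (4-OHT), and control cells carried the ERt2 vector without Ikaros. Both were sampled at 6 times (0, 2, 6, 12, 18 and 24 h) in triplicate, which makes 12 groups, and the question was how expression moves once Ikaros is induced. Each line is a transduced population of 1 cell line that carries the factor on a retroviral vector, and the replicates are numbered culture batches: 1, 2 and 4 at 0 h, and 1, 3 and 4 afterwards. The labels give 0.5 uM 4-OHT for every library of both lines, whereas the study's methods describe the 0 h cells as untreated and gathered on other occasions, so that a comparison with 0 h also compares occasions.

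All values are log2 expression as deposited, after adjustment for GC content, gene length and library preparation, with a constant added by the authors. A value is therefore a relative level on a log2 scale and not a count, and a difference of 1 is a 2-fold difference if the logarithm has base 2, which the table does not state. Sequencing depth cannot be read from such values, and library medians lay between 11.70 and 11.73. Ikzf1, the gene carried by the vector, had group means of 14.28 to 14.70 in control cells and 19.89 to 20.71 in Ikaros cells, so that the libraries matched their line labels. All 9 B-lineage markers looked up (Cd79a and Pax5 among them) were in the table, and their average lay between 13.66 and 14.48 in Ikaros groups and between 13.88 and 14.24 in control groups. That average covers markers that went opposite ways at 24 h, when 5 were higher and 2 lower in Ikaros cells (limma, adjusted p under 0.05). Over all genes 31.0% were higher and 31.9% lower then. Rag1 differed by 5.19, Cd79b by 2.29 and Rag2 by 2.08, and Igll1 by -3.96 and Vpreb1 by -3.42. Of the markers of other cells, 1 of 6 for T cells (Lat), 2 of 6 for myeloid cells, 3 of 5 for erythroid cells and 0 of 4 for stromal cells were in the table. Their group averages were 7.21 to 10.64 in Ikaros cells and 9.62 to 10.27 in control cells for Lat, 6.66 to 7.62 and 5.51 to 6.36 for the myeloid markers, and 6.05 to 7.01 and 6.42 to 6.93 for the erythroid markers. The myeloid markers in the table did not move together. Lyz2 was higher in Ikaros cells at 2 h (2.66) and lower at 18 h (-2.06) and 24 h (-2.94), and Slc16a3, Ldha, Pdk1, Pgam1 and Gapdh were likewise higher at 2 h and lower at 24 h, whereas Itgam was higher at 18 h (4.52) and 24 h (4.24). Lat was lower at 18 h (-2.75) and 24 h (-2.34). The part of other cell types in the results was not tested.

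Glycolysis splits glucose in its upper steps and recovers ATP and NADH in its lower steps. GAPDH oxidises the triose and makes NADH, PGK1 and pyruvate kinase each make ATP, and PGAM1 and enolase move a phosphate and remove water between these steps. Pyruvate then has several fates. Lactate dehydrogenase A turns it into lactate and gives back NAD+, MCT4 (Slc16a3) and MCT1 (Slc16a1) carry lactate with a proton across the cell membrane, and the kinase PDK1 holds back the oxidation of pyruvate in the mitochondrion by switching off pyruvate dehydrogenase. Dividing lymphoid precursors are known for running this pathway at a high rate, and HIF-1 and Myc are well known activators of many of its genes. MCT4 is known as the export form in strongly glycolytic cells and MCT1 as a transporter of higher affinity that can work in either direction.

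The sequences before a RefSeq start site of Ldha, Slc16a1 and Slc16a3 are shown. They were chosen because Slc16a3 and Ldha had the largest differences between the lines at 24 h, and because Slc16a1 moved against Slc16a3. The sequences come from RefSeq on GRCm38.p6, forward strand, 5′ to 3′, and hold no annotated exon of their gene. Capitals mark the hypoxia core (ACGTG or GCGTG on either strand) and the E-box CACGTG, the palindrome that Myc and Max bind. Each E-box holds a hypoxia core on both strands, so these matches overlap.
Slc16a1, chr3:104638414-104638663: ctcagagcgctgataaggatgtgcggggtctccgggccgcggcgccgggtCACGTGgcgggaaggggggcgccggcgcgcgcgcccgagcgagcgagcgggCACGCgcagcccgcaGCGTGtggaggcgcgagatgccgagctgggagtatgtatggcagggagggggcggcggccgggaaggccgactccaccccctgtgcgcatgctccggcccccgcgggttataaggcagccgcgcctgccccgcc
Ldha, chr7:46845554-46845803: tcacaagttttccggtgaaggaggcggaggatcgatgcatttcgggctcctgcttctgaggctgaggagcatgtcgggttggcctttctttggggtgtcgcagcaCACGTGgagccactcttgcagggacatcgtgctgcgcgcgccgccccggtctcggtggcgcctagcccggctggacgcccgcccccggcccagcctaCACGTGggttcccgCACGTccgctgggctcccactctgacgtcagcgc
Slc16a3, chr11:120948817-120949052: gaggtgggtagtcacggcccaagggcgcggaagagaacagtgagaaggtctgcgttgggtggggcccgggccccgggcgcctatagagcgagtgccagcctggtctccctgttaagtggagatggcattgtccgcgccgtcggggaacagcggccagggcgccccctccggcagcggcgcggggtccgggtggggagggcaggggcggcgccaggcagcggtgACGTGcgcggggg
Ldha held 2 E-boxes and 5 matches of the hypoxia core, Slc16a1 held 1 and 4, and Slc16a3 held 0 and 1. The stretch shown for Slc16a3 has 236 bases and those for Ldha and Slc16a1 have 250. A further hypoxia core of Slc16a3, at -14 from the start site, lies past the end of its stretch. In the 250 bases before any listed start site, 9 of the 9 genes held the hypoxia core, against 41.5% of 27025 genes, and 2 held the E-box (Ldha and Slc16a1), against 6.86%. GGGAA, the core that Ikaros recognises, is not in capitals and was found before 8 of the 9 (all except Pgam1), against 59.4% of genes. A match is a string of letters in a window, and nothing about binding was measured here. The gene annotation (GENCODE, GRCm38) begins Ldha and Slc16a3 farther upstream than the RefSeq start used for these windows. The sequences shown for Ldha and Slc16a3 therefore lie within the annotated genes.

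The time course had an early side on which the pathway stood higher in Ikaros cells and a late side on which it stood lower. Slc16a1 went the other way on the late side only, with differences of 0.44, 0.00, 0.29 and 0.49 at 0, 2, 6 and 12 h. Differences are Ikaros minus control, fitted with limma over all 36 libraries, and a gene was called at a Benjamini-Hochberg adjusted p under 0.05 over all 12762 genes. At 2 h, 5 of the 9 genes were higher (9.18% of all genes were), and at 24 h, 8 were lower (31.9%) and 1 was higher (31.0%). The median difference of the 9 genes was 0.35, 0.58, 0.52 and 0.26 at the first 4 times (0 to 12 h), then -0.52 at 18 h and -1.62 at 24 h. Over all genes the median lay between -0.032 and -0.002 at these times. Less of a transcript per cell and fewer cells that express it cannot be told apart in bulk libraries.

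**Figure D1:**
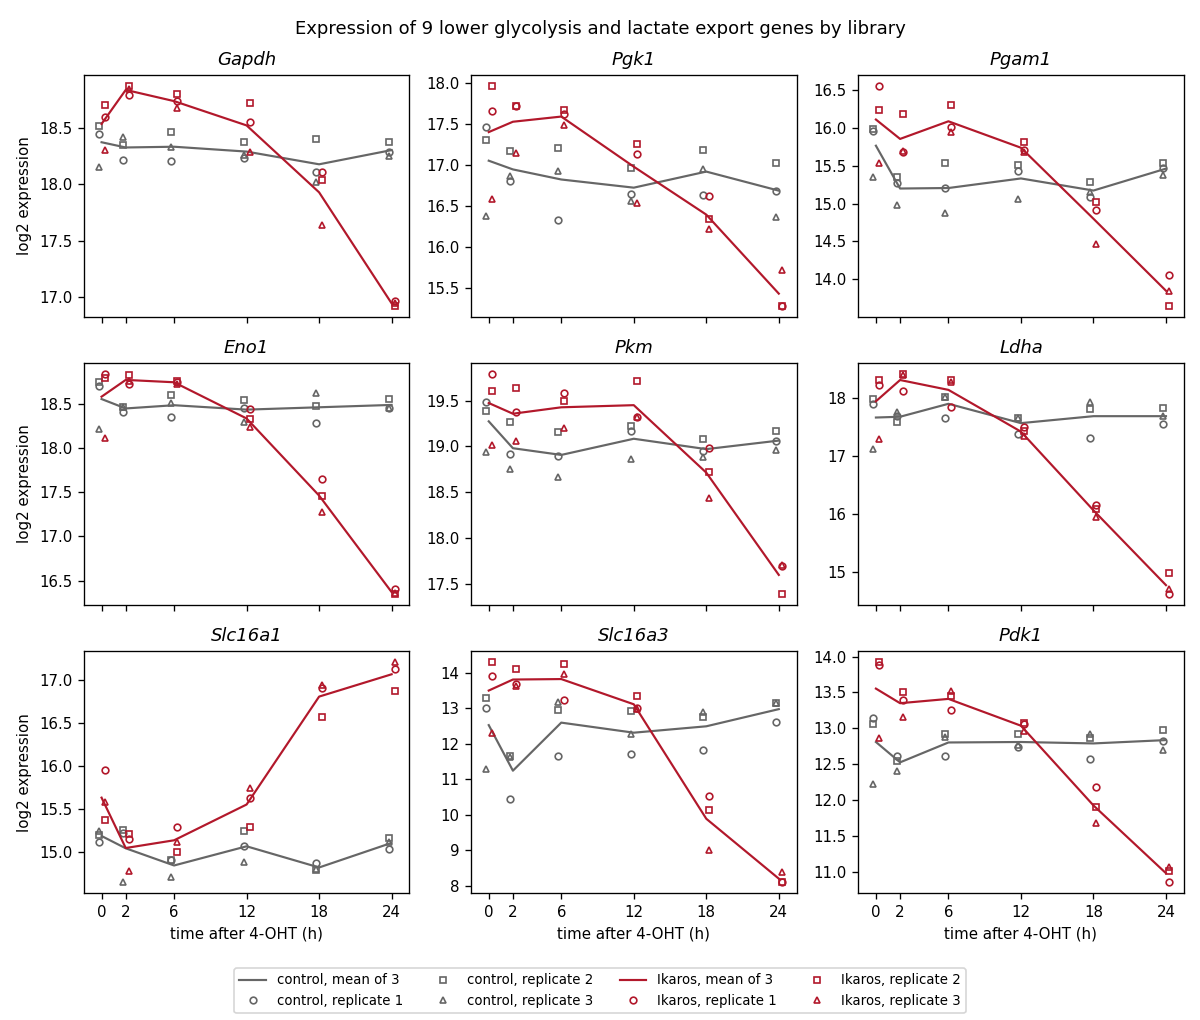
Log2 expression (vertical axis, a separate scale for each gene) of the 9 genes against time after 4-OHT in hours, with a symbol for each of the 36 libraries and lines through the means of 3, control in grey and Ikaros in red. No control change from 0 h was called at 2 or 24 h, while 8 genes fall in Ikaros cells after 12 h and Slc16a1 climbs to a mean of 17.07.

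Slc16a3 (ENSMUSG00000025161; GRCm38 chromosome 11, 120948480 to 120960868, forward strand), the gene of the lactate exporter MCT4, moved most between 2 and 24 h. At 2 h control libraries held 10.44, 11.67 and 11.63 and Ikaros libraries 13.70, 14.12 and 13.62. The groups did not overlap, and the control library of batch 1 lay more than 1 below the other two. The difference was 2.57 (limma, SE 0.52, adjusted p = 7.71e-04), or 5.93-fold with a 95% confidence interval of 2.81 to 12.5. At 18 h the values were 11.83, 12.75 and 12.91 in control cells and 10.53, 10.15 and 9.0 in Ikaros cells, a difference of -2.60 (limma, SE 0.52, adjusted p = 1.19e-04). At 24 h they were 12.63, 13.15 and 13.16 against 8.12, 8.11 and 8.39. All Ikaros libraries were then far under all control libraries, at 3.65% of the control level (difference -4.77, limma, SE 0.52, adjusted p = 9.74e-09; 27.4-fold lower, 95% confidence interval 13.0 to 57.6).
At the other times Slc16a3 was not called. The difference was 0.97 ± 0.52 (SE) at 0 h, 1.23 at 6 h (limma, adjusted p = 0.0669) and 0.80 at 12 h. Where the fit held the culture batch as replicate block, the 6 h difference was called (limma, adjusted p = 0.0378). Among the 12 group means the order from the top was Ikaros at 6, 2 and 0 h (13.83, 13.81 and 13.50), Ikaros at 12 h and control at 24 h (13.12 and 12.98), then the other control groups from 12.60 down to 11.25 at 2 h, and last Ikaros at 18 and 24 h (9.89 and 8.21). Neighbours in the upper part of that order differ by less than their spread: the SD over 3 libraries reached 1.08 in control cells at 0 h. At 0 h the batch 4 cultures were low in both lines, at 11.29 in control and 12.30 in Ikaros cells, where the others held 13.00 and 13.30 and 13.91 and 14.30. Within batches 1, 2 and 4 the 0 h differences were close to each other, at 0.91, 1.0 and 1.01. The SE of 0.52 comes from a fit without the batch, so that it also holds spread between batches. With the replicate block the 0 h difference was still not called (limma, adjusted p = 0.221).

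Slc16a1 (ENSMUSG00000032902; chromosome 3, 104638668 to 104658462, forward strand), the gene of MCT1, was the gene that stood higher at the end. At 24 h it held 15.04, 15.16 and 15.12 in control libraries and 17.13, 16.87 and 17.21 in Ikaros libraries. The groups were apart, with a difference of 1.96 (limma, SE 0.16, adjusted p = 4.66e-11), or 3.90-fold with a 95% confidence interval of 3.09 to 4.90. The difference was already 1.99 at 18 h (limma, SE 0.16, adjusted p = 5.35e-11), from 14.87, 14.79 and 14.80 in control cells and 16.91, 16.57 and 16.95 in Ikaros cells. At 12 h it was 0.49 (limma, SE 0.16, adjusted p = 0.0149), and no other of the 9 genes was called then (23.0% of all genes were higher). This call was lost without batch 1 (limma, 0.45, adjusted p = 0.142) and without batch 4 (limma, 0.30, adjusted p = 0.186). At 2 h it was 0.00 ± 0.16 (SE), with a 95% confidence interval of -0.33 to 0.34. Against their own 0 h, Ikaros cells held 0.59 less Slc16a1 at 2 h (limma, difference -0.59, SE 0.16, adjusted p = 0.0126). That was the 1 fall among the 9 genes in a comparison in which 9.61% of all genes fell. With the replicate block 2 of the 9 genes were called there, 1 higher and 1 lower. The fall of Slc16a1 was not called without batch 1, without batch 4 or in a fit of these groups alone. In the annotation 2 gene models, Gm43581 and Gm43585, overlap Slc16a1, and the strand setting of the counting is not given in the sources used here.

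Set against each other within a library, the transporter genes drew apart. Log2 Slc16a1 minus log2 Slc16a3 averaged 2.13 ± 0.25 (SD, n = 3) in control cells at 24 h, with libraries from 1.96 to 2.41. It averaged 8.86 ± 0.13 (SD, n = 3) in Ikaros cells, with libraries from 8.76 to 9.01, a gap of 6.74 between the lines. At 18 h the gap was 4.60, and at 2 h it ran the other way, at -2.56, with 3.80 ± 0.90 (SD, n = 3) in control and 1.23 ± 0.19 (SD, n = 3) in Ikaros cells. The lines did not overlap at 2, 18 or 24 h, and each of these gaps had a two-sided exact permutation p of 0.1, the smallest that 3 against 3 allows. At 0, 6 and 12 h the gaps were -0.53, -0.93 and -0.31 and the lines overlapped. Only the gap between lines is read here, since the value within a line also depends on how each gene was normalised.

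**Figure D2:**
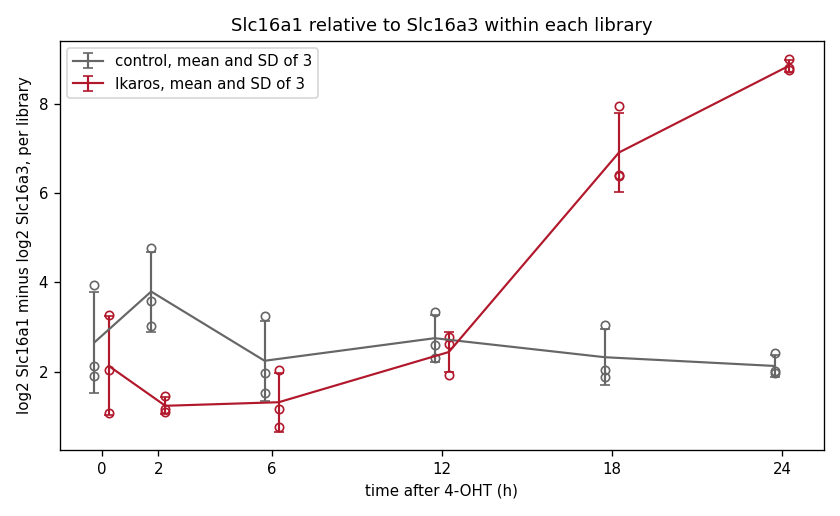
Log2 Slc16a1 minus log2 Slc16a3 (vertical axis) in each library against time after 4-OHT in hours, with circles for libraries and lines with bars for the mean and SD of 3, control in grey and Ikaros in red. The Ikaros libraries lie under control at 2 h and reach 8.86 at 24 h, while the control means stay between 2.13 and 3.80.

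Ldha (ENSMUSG00000063229; chromosome 7, 46841475 to 46855627, forward strand) makes the enzyme that reduces pyruvate to lactate. It is also 1 of the marker genes that the study followed. The study used it as its example across data layers and reported, from chromatin data, that Ikaros binds its promoter region. It further reported falling promoter accessibility, mRNA and protein for this gene, and microRNAs whose levels ran against it. Pyruvate and lactate were also reported to decrease in Ikaros samples relative to control, and glycolysis as a whole to go down in RNA, protein and accessibility. Of these layers only mRNA was analysed here. At 24 h Ldha held 17.55, 17.84 and 17.69 in control libraries and 14.63, 14.99 and 14.72 in Ikaros libraries. The Ikaros libraries were all lower, at 13.3% of control (difference -2.91, limma, SE 0.22, adjusted p = 8.07e-12; 7.54-fold, 95% confidence interval 5.51 to 10.3). At 18 h the values were 17.32, 17.82 and 17.94 against 16.17, 16.09 and 15.95, a difference of -1.62 (limma, SE 0.22, adjusted p = 4.77e-07). At 12 h the lines lay within their spread of each other (-0.14 ± 0.22, SE), with group means of 17.57 ± 0.16 and 17.43 ± 0.07 (SD, n = 3). At 2 h Ldha was higher in Ikaros cells by 0.63 (limma, SE 0.22, adjusted p = 0.0443): 18.12, 18.42 and 18.41 against 17.69, 17.59 and 17.77. The 2 h call was lost without batch 1 or batch 3 and in a fit of the 2 h groups alone, although the direction was the same in each batch. As with Slc16a3, both 0 h cultures of batch 4 stood low, at 17.12 and 17.30 where the other 0 h libraries held 17.90 to 18.32.

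Eno1 (ENSMUSG00000063524; chromosome 4, 150236721 to 150248879, forward strand), the gene of the main enolase, had the largest late difference of the 5 enzyme genes between GAPDH and pyruvate kinase. At 18 h it held 18.29, 18.48 and 18.62 in control and 17.65, 17.46 and 17.28 in Ikaros libraries. That difference of -1.0 (limma, SE 0.14, adjusted p = 1.29e-06) was called at 18 h, and those of Gapdh, Pgk1, Pgam1 and Pkm were not. At 24 h the values were 18.46, 18.56 and 18.45 against 16.40, 16.35 and 16.36, with an SD of 0.06 in control and 0.03 in Ikaros cells (difference -2.12, limma, SE 0.14, adjusted p = 1.04e-12). Before 18 h Eno1 was not called at any time, with differences of 0.03, 0.33, 0.26 and -0.10 at 0, 2, 6 and 12 h.

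Gapdh, Pgk1, Pgam1 and Pkm were lower at 24 h by a narrower range, from -1.26 to -1.62. Gapdh (ENSMUSG00000057666; chromosome 6, 125161715 to 125166467, reverse strand), often used as a reference gene, held 18.29, 18.38 and 18.25 in control and 16.96, 16.92 and 16.94 in Ikaros libraries at 24 h. The difference was -1.37 (limma, SE 0.13, adjusted p = 4.51e-10), or 38.8% of control, and the SD of the 3 Ikaros libraries was 0.02. Pgam1 (ENSMUSG00000011752; chromosome 19, 41911923 to 41918660, forward strand), the mutase that moves the phosphate between carbons, held 15.47, 15.54 and 15.38 against 14.05, 13.65 and 13.84, a difference of -1.62 (limma, SE 0.22, adjusted p = 2.95e-07). Pkm (ENSMUSG00000032294; chromosome 9, 59656368 to 59679375, forward strand), which encodes the last, ATP-making enzyme of the pathway, held 19.06, 19.17 and 18.96 against 17.69, 17.39 and 17.71 (difference -1.47, limma, SE 0.20, adjusted p = 3.17e-07). Its row sums the muscle and proliferative splice forms. Pgk1 (ENSMUSG00000062070; chromosome X, 106187100 to 106203699, forward strand), the first ATP-making enzyme, held 16.68, 17.02 and 16.36 against 15.28, 15.28 and 15.72. It showed the smallest difference (-1.26, limma, SE 0.30, adjusted p = 6.90e-04), and it also had the widest spread of the enzyme genes, with an SD of 0.59 in control and 0.73 in Ikaros cells at 0 h. Pseudogenes or related sequences named after the gene are annotated for Gapdh (2), Pgk1 (3), Pgam1 (2) and Ldha (2). Copies under other names were not counted for any gene. Pgk1-rs7 and Pgam1-ps2 were themselves among the genes measured. Iffo1 overlaps Gapdh and Gm49759 overlaps Pkm. Part of the values of these pathway genes could therefore belong to another gene.

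Pdk1 (ENSMUSG00000006494; chromosome 2, 71873224 to 71903858, forward strand), the kinase that holds pyruvate dehydrogenase inactive, was the gene called at 0 h. It held 13.14, 13.06 and 12.23 in control and 13.88, 13.92 and 12.86 in Ikaros libraries, a difference of 0.74 (limma, SE 0.21, adjusted p = 0.0268). The batch 4 pair was again low in both lines, and within batches 1, 2 and 4 the differences were 0.74, 0.85 and 0.63. The call (1 of 9 genes, where 4.61% of all genes were higher) was lost without batch 1, without batch 2 and in a fit of the 0 h groups alone. At 2 h Pdk1 was higher by 0.82 (limma, SE 0.21, adjusted p = 0.00673). By 6 h the difference was 0.61 (limma, SE 0.21, adjusted p = 0.0260). It then turned, to -0.86 at 18 h (limma, SE 0.21, adjusted p = 0.00110), and had reached -1.86 by 24 h (limma, SE 0.21, adjusted p = 2.20e-08). The 24 h libraries held 12.83, 12.98 and 12.70 in control cells and 10.86, 11.02 and 11.07 in Ikaros cells, with no overlap.

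Taken by time, the calls at 2 and 6 h were all higher in Ikaros cells. At 2 h Slc16a3, Pdk1, Pgam1 (0.66), Ldha and Gapdh (0.51) were higher, and Pgk1 (0.58), Pkm (0.38), Eno1 (0.33) and Slc16a1 were not called. For 6 genes, these 5 and Eno1, every Ikaros library at 2 h lay above every control library, as 13.4% of all genes did. At 6 h 5 genes were higher, namely Pgam1 (0.88), Pgk1 (0.77), Pdk1 (0.61), Pkm (0.52) and Gapdh (0.41), in a comparison in which 18.1% of all genes were. These counts depended on the libraries used: without batch 1, and equally without batch 3, 1 gene was called at 2 h (Slc16a3) and 1 at 6 h (Pgam1), and fits of the groups of 1 time alone called 2 at either time. At 18 h 4 genes were lower (Slc16a3, Ldha, Eno1 and Pdk1; 29.2% of all genes were lower) and Slc16a1 was higher (29.0%), while Gapdh (-0.25), Pgk1 (-0.52), Pgam1 (-0.38) and Pkm (-0.26) were not called. With the replicate block, Gapdh and Pgam1 were called too at 18 h (limma, adjusted p = 0.0365 and 0.0477), and at 12 h Pgam1 and Pkm were called as higher beside Slc16a1 (limma, adjusted p = 0.0422 and 0.0381).

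**Figure D3:**
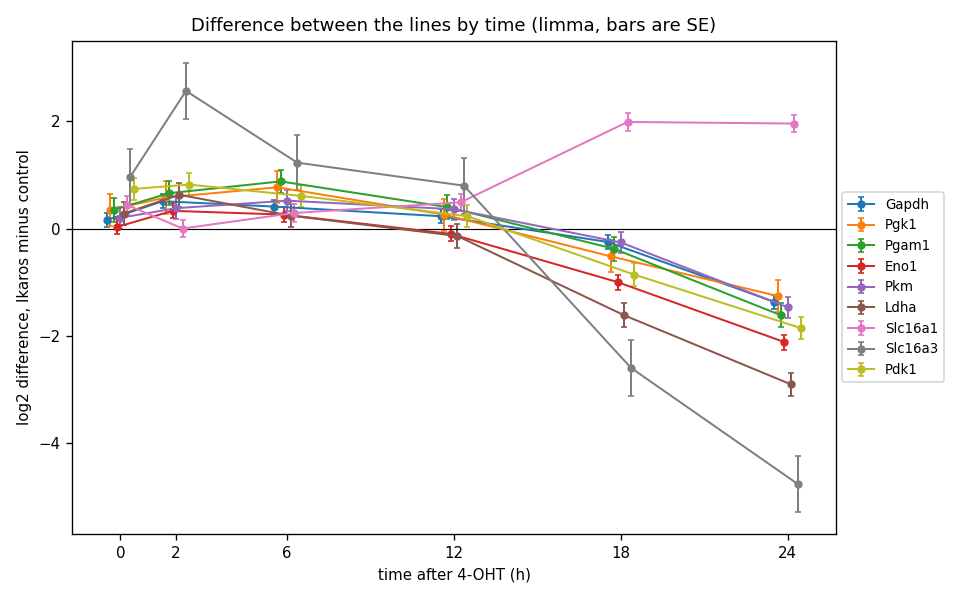
Difference in log2 expression, Ikaros minus control (vertical axis), of the 9 genes against time after 4-OHT in hours, with limma estimates as points and their SE as bars. Slc16a3 runs from 2.57 at 2 h to -4.77 at 24 h and Slc16a1 from 0.00 to 1.96, with the other 7 at 0.33 to 0.82 and then at -2.91 to -1.26.

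Whether the difference itself moved between times was tested as a contrast of contrasts. From 0 to 2 h, 2 to 6 h and 6 to 12 h no gene of the 9 passed in limma, against 3.10%, 5.96% and 16.0% of all genes in either direction, and 1, 0 and 0 had an unadjusted p under 0.05. Between 12 and 18 h the difference fell for 4 genes (Slc16a3, Ldha, Pdk1 and Eno1), as for 6.19% of all genes, and rose for Slc16a1, as for 5.54%. Between 18 and 24 h it fell for Ldha, Pgam1, Pkm, Gapdh and Eno1, where 1.92% of all genes fell, and Slc16a1 stayed within its error (-0.03). Slc16a3 (-2.17, limma, adjusted p = 0.121) and Pdk1 (-0.99, limma, adjusted p = 0.0726) did not pass in that last step, and Pdk1 passed with the replicate block (limma, adjusted p = 0.0343). The calls of single steps depended on the libraries used: without batch 1 and without batch 3 2 and 1 genes were called for the 12 to 18 h step and 0 and 0 for the 18 to 24 h step. With the replicate block 8 genes passed from 12 to 18 h, Gapdh, Pgam1 and Pkm joining the 5.
Over the longer spans every gene passed. From 0 to 24 h the difference fell for 8 genes (24.2% of all genes) and rose for Slc16a1 (24.2%), and from 2 to 24 h it fell for the 8 genes other than Slc16a1 (24.0%) and rose for Slc16a1 (23.3%), by -1.84 for Pgk1 to -7.34 for Slc16a3 among those that fell. Both spans share the 24 h libraries. Pgk1 was not called from 0 to 24 h without the second replicate (limma, -1.21, adjusted p = 0.107).

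Each line against its own start showed on which side the movement lay. In Ikaros cells at 24 h, 8 genes fell (29.6% of all genes did) and Slc16a1 rose (31.0%). The falls ran from -1.60 for Gapdh to -5.30 for Slc16a3, with -3.17 for Ldha, -2.57 for Pdk1, -2.26 for Pgam1, -2.21 for Eno1, -1.98 for Pgk1 and -1.88 for Pkm, and the rise of Slc16a1 was 1.44. In control cells limma called 0 of the 9 genes at 24 h and 0 at 2 h, where 0.470% and 0.0470% of all genes were called in either direction. At an unadjusted p under 0.05 there were 0 and 2. Those 2, at 2 h in control cells, were Pgam1 (-0.57) and Slc16a3 (-1.28), so that the 2 h gap in Slc16a3 between the lines came with a control level of 11.25 ± 0.70 (SD, n = 3) under the 0 h level of 12.53 ± 1.08.

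The culture batches gave the same picture at the ends. At 24 h the difference within each of batches 1, 3 and 4 was negative for 8 genes and positive for Slc16a1, and the lines did not overlap for any of them (36.1% of all genes lay below without overlap and 35.0% above). For Slc16a3 the 3 values were -4.51, -5.04 and -4.77, for Ldha -2.93, -2.85 and -2.96, and for Slc16a1 2.09, 1.71 and 2.09. At 2 h the difference was positive in all 3 batches for 8 genes, the exception being Slc16a1, and at 6 h for all 9. Before induction, at 0 h, it was likewise positive in all 3 batches for 8 genes, the exception being Eno1. The share of all genes with the same sign in all 3 batches was not computed, so how unusual these counts are was not tested. At 18 h the batches differed more. For Slc16a3 batch 1 gave -1.30, batch 3 gave -2.60 and batch 4 gave -3.91, and Ldha (-1.15, -1.74, -1.99), Eno1 (-0.64, -1.02, -1.34) and Pdk1 (-0.39, -0.96, -1.23) were likewise nearest to 0 in batch 1 and farthest in batch 4. The Pkm difference at 18 h was 0.03 in batch 1 and -0.36 and -0.44 in batches 3 and 4. What set the batches apart at that time was not tested.

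**Figure D4:**
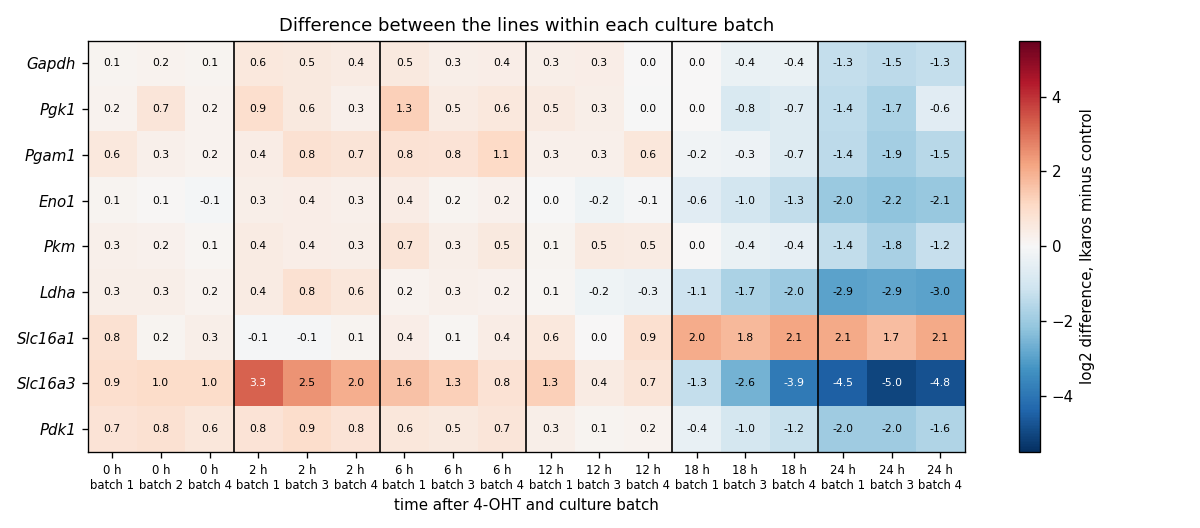
Heat map of the log2 difference, Ikaros minus control, within each culture batch (columns, grouped by time after 4-OHT) for the 9 genes (rows), with the value in each cell and red for higher and blue for lower in Ikaros cells. The columns of 24 h are blue for all genes except Slc16a1, and at 18 h Slc16a3 spans -1.30 in batch 1 to -3.91 in batch 4.

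The shape over the 12 group means was shared within the set. Among the 8 genes other than Slc16a1 the 28 pairs had Pearson correlations of 0.883 to 0.993, and Slc16a1 had correlations of -0.910 to -0.648 with them. Outside the set, the genes most like Ldha were Pebp1 (r = 0.992), Uqcr11 (0.989), Pycr1 (0.989), Syce2 (0.988) and Phgdh (0.986). Those most like Slc16a3 were Gpi1 (r = 0.987), Pfkl (0.986), Fam162a (0.980), Higd1a (0.979) and Slc2a1 (0.978), of which Gpi1, Pfkl and Slc2a1 serve the upper steps of glycolysis. These are descriptions over 12 means that share libraries and the late change of the Ikaros line.

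Most genes of upper glycolysis also stood higher at 2 h and lower at 24 h. The list genes below are given by their limma difference, and higher or lower again means an adjusted p under 0.05. All 16 genes listed for glucose entry and the upper steps were in the table. Of these, 10 were higher and 1 lower at 2 h (9.18% and 9.88% of all genes were). At 24 h 1 was higher and 13 lower (31.0% and 31.9% of all genes were), with a median difference of -0.96. At 24 h Hk2, an inducible hexokinase, differed by -3.10, the phosphofructokinase genes Pfkp and Pfkl differed by -2.77 and -2.64, and the glucose transporter gene Slc2a1 by -2.56. Pfkfb4, which makes the activator of phosphofructokinase, was higher at both ends, by 1.59 at 2 h and 1.63 at 24 h. Hk2 was not called at 2 h (-0.29), unlike Slc2a1 (1.04) and Pfkl (0.86), which were higher. Of 12 genes listed as other isoforms of the enzymes and transporters, 2 were in the table. Both were lower at 24 h (31.9% of all genes were): Eno3 by -1.33 and Pgam5, a mitochondrial phosphatase of the same family, by -0.75.

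Genes on the other routes of pyruvate and NADH moved less evenly. For pyruvate entry into mitochondria and its regulators, 7 of 12 genes in the table were lower and 1 higher at 24 h (median -0.67). Over all genes 31.9% were lower and 31.0% higher then. At 2 h, 2 of the 12 were higher, against 9.18% of all genes. Pdp1, the phosphatase that undoes the action of PDK1, was lower (-1.92), as were pyruvate carboxylase (Pcx, -1.43) and the pyruvate carrier subunit Mpc1 (-0.81), and Pdha1, the catalytic subunit that PDK1 acts on, was higher (1.44). The call for Mpc1 was lost without batch 1 and without batch 3. The NADH shuttles take reducing power into the mitochondrion by another path than lactate formation. Of their 10 genes 6 were lower and 4 higher at 24 h (median -0.48), against 31.9% and 31.0% of all genes. Slc25a13 (-1.87) and the mitochondrial glycerol phosphate dehydrogenase Gpd2 (-0.91) were lower, and Gpd1l (1.06), Gpd1 (0.99), Slc25a11 (0.55) and Mdh1 (0.30) were higher, although Gpd1 and Mdh1 were not called when some of the batches were left out.

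Among the partners of the lactate transporters and the proton exporters, 5 of 5 genes in the table were lower at 24 h (median -0.82). Over all genes 31.9% were lower then. Bsg, the membrane protein basigin that takes both MCT1 and MCT4 to the cell surface, was higher at 2 h (0.63) and lower at 24 h (-1.20). Its direction was that of Slc16a3 at both times. The carbonic anhydrase genes Car12 and Car9 were lower at 2 h (-0.89 and -0.58) and at 24 h (-1.73 and -0.82), and the bicarbonate transporter gene Slc4a7 was lower at 24 h (-0.73).

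The Myc genes among the regulators of the pathway stood below control already at 2 h. Myc was lower in Ikaros cells at 2 h (-1.63) and at 24 h (-2.52), and Mycn at 2 h (-2.99) and at 24 h (-3.54). At 2 h, 5 of the 9 pathway genes stood above control. Any part of Myc or Mycn in the course of the pathway genes was not tested. Hif1a itself was higher at 18 h (0.76, limma, adjusted p = 0.0203) and was not called at 2 h (0.25) or 24 h (0.54). Of 12 such regulators 7 were higher and 2 lower at 24 h (median 0.52), against 31.0% and 31.9% of all genes. The higher ones were led by Mlxip (1.36), which encodes a glucose-sensing partner of Mlx. Vhl (1.01) and Hif1an (0.83), which restrain HIF, and Arnt (0.64), the partner of HIF-1α, came next. Of 13 HIF-1 targets outside glycolysis in the table, 8 were higher and 0 lower at 2 h (median 0.85), against 9.18% and 9.88% of all genes. At 24 h 2 were higher and 9 lower (median -1.56), against 31.0% and 31.9%. Vegfa (-3.15), Ankrd37 (-2.59) and Fam162a (-2.29) were the farthest below control at 24 h, whereas Egln3, a HIF prolyl hydroxylase gene, was above it at 2 h (4.96) and at 24 h (2.70), and Ddit4 at 24 h (0.75). The call for Ddit4 was lost without batch 1.

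**Figure D5:**
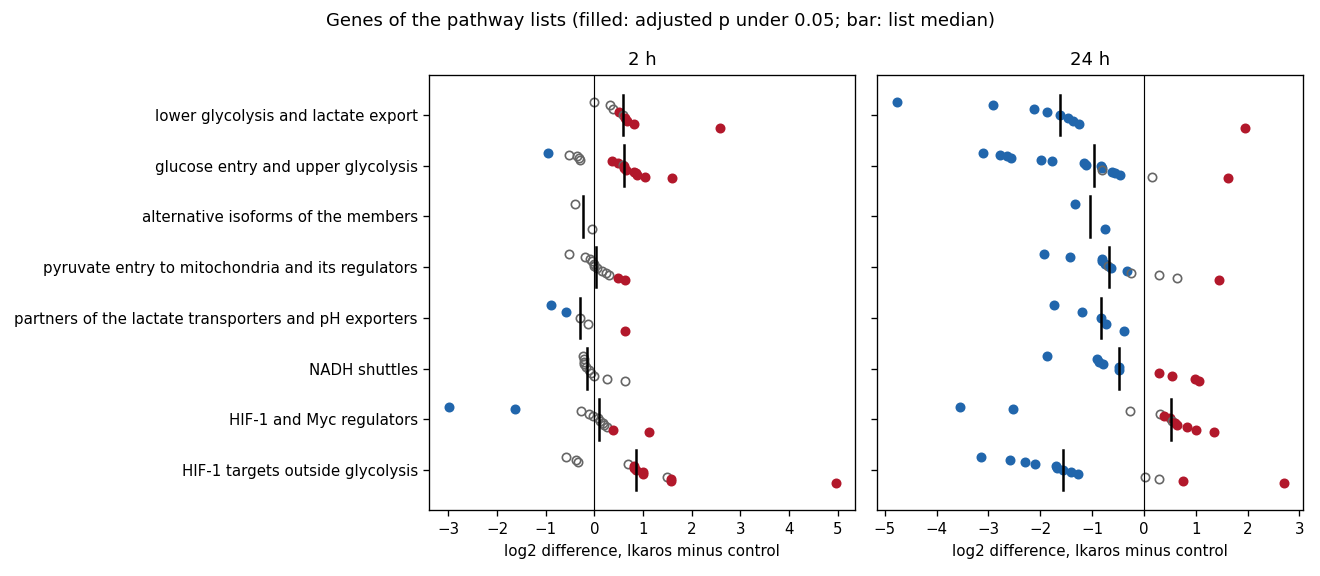
Difference in log2 expression, Ikaros minus control (horizontal axis), of each gene of the pathway lists (rows) at 2 h and 24 h, with filled points for an adjusted p under 0.05 (red higher, blue lower), open points for the rest and a bar at the list median. The 9 lower glycolysis and lactate export genes have medians of 0.58 and -1.62, and the HIF-1 targets outside glycolysis medians of 0.85 and -1.56.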

How the data were processed

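Messenger RNA was measured in 36 libraries of 2 B3 lines at 6 times, grouped by the labels. Per the labels and the study's methods, the authors trimmed the reads, aligned them to mm10 with TopHat2 keeping unique best hits, counted genes with HTSeq, normalised with cqn and adjusted for library preparation with ComBat. The deposited values are log2 expression with a constant added so that the lowest is 1; tool versions and the strand setting are not given in the sources used here. Adjustment before deposition can make the standard errors given here too small. From these values, limma 3.58.1 in R 4.3.3 fitted 12 group means (lmFit, contrasts.fit, eBayes), with Benjamini-Hochberg adjustment over 12762 genes; the script was tested on simulated data. The study states no differential test for this table. Exact permutation tests used scipy 1.17.1, and figures matplotlib 3.10.9.

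The pathway genes and all lists were chosen with earlier results of these data known. All listed pathway genes are named; from each other list, up to 4 genes called at 24 h with the largest absolute difference and up to 2 called in the opposite direction, and for Ldha and Slc16a3 the 5 genes most like them. Other genes named (Hif1a and the cell type markers) were chosen after their values were seen. Labels give control and Ikaros cultures of a batch the same number, which pairs the libraries. Over 18 pairs the deviations from group means correlated between -0.062 and 0.507 (median 0.127), and 12 pairs were above 0.1. Replicates are separate cultures of the same lines, so that p-values measure the spread between cultures. The alternatives were a replicate block, the same with 0 h cultures as separate blocks, a filter on low values (9571 genes kept), quantile normalization, eBayes with trend and robust settings, fits of the compared groups alone, and leaving out each replicate. Some genes of the lists are not reported here and were left out of the list counts.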

Additional observations from a re-analysis of the deposited data

Results flagged for a closer look

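The gap between the lines was not the same at all times, by a direct test of its change (limma, adjusted p under 0.05 over all genes). From 12 to 18 h it changed by -3.41 for Slc16a3, -1.48 for Ldha, -1.09 for Pdk1 and -0.90 for Eno1, and by 1.5 for Slc16a1, all on the log2 scale. From 18 to 24 h it changed by -1.29 for Ldha, -1.24 for Pgam1, -1.21 for Pkm, -1.12 for Gapdh and -1.12 for Eno1.

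Over the span from 0 to 24 h the changes were -5.75 for Slc16a3, -3.19 for Ldha, -2.59 for Pdk1, -2.14 for Eno1, -1.96 for Pgam1, -1.67 for Pkm, -1.61 for Pgk1, -1.53 for Gapdh and 1.52 for Slc16a1. From 2 to 24 h they were -7.34 for Slc16a3, -3.54 for Ldha, -2.68 for Pdk1, -2.44 for Eno1, -2.27 for Pgam1, -1.88 for Gapdh, -1.85 for Pkm, -1.84 for Pgk1 and 1.96 for Slc16a1. These spans share the 24 h libraries and are not independent of each other.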

How the results depend on the processing

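Counts of called genes among the 9 moved with the setting mainly before 24 h. At 24 h all 9 were called in every alternative, as they were from 2 to 24 h and in Ikaros cells at 24 h against their own 0 h. With the replicate block the counts became 6 at 6 h (from 5), 3 at 12 h (from 1) and 7 at 18 h (from 5). They also became 8 for the 12 to 18 h change (from 5), 6 for the 18 to 24 h change (from 5) and 2 in Ikaros cells at 2 h against 0 h (from 1). With 0 h cultures as separate blocks they became 8 at 2 and 18 h, 7 at 6 h and 4 at 12 h. The changes then had 1 for 6 to 12 h, 8 for 12 to 18 h and 7 for 18 to 24 h. Beside the calls given with the results, the block changed no other call named for Ikaros against control. In fits of the compared groups alone they fell to 0 at 0 and 12 h, to 2 at 2 and 6 h, and to 0 for the 18 to 24 h change and 0 in Ikaros cells at 2 h against 0 h. Leaving out each replicate gave 0 to 1 called genes at 0 and 12 h, 1 to 7 at 2 and 6 h, 1 to 5 for the 12 to 18 h change, 0 to 6 for the 18 to 24 h change and 0 to 1 in Ikaros cells at 2 h against 0 h. Fewer samples enter those fits, and any further cause was not tested. The sign turned for Eno1 at 0 h (-0.02 with quantile normalization, -0.03 to 0.10 when each replicate was left out) and Slc16a1 at 2 h (-0.01 with quantile normalization, -0.06 to 0.04 when each replicate was left out), none of them called. The filter on low values, quantile normalization and the trend and robust settings left every count of called genes as it was. With 0 h cultures as separate blocks the comparisons of a line with its own 0 h cannot be estimated and were not run. The study states the depth it aimed for, but the depth reached cannot be read from these values. Precision therefore rests on 3 libraries per group.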
